A study of Mus musculus with 6 samples.

Results

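The genes described are 10 of the 17385 in a table of hippocampal gene counts. They comprise 9 neuropeptide genes of hippocampal interneurons, granule cells and pyramidal cells (Sst, Cort, Npy, Vip, Cck, Crh, Penk, Pdyn and Tac1) and Crhbp, which encodes the protein that binds the Crh peptide. They were picked by gene name with the difference between the groups already known, so their values in that comparison are given as a description and without p-values. All 10 passed the filter on low counts, which kept 13937 genes. The libraries came from the hippocampus of 3-month-old mice, 3 from 5xFAD mice and 3 from wild-type (WT) mice. 5xFAD mice carry transgenes for human APP and human presenilin-1 with mutations of familial Alzheimer's disease, on a C57BL/6J background, and the mouse Thy1 promoter drives them in neurons. Mice of both groups were perfused with saline, and the labels give no treatment. The study describes biological replicates, while the labels do not say which mouse gave each library, so the spread between libraries may be partly technical. The methods describe both female mice and littermates of both sexes, and no comparison by sex was made.

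Neuropeptides are cut from longer precursor proteins, stored in dense core vesicles and released by strong or repeated firing. They act more slowly than GABA or glutamate, mostly through G protein-coupled receptors. In the hippocampus most of these peptides mark classes of GABAergic interneurons, for example somatostatin in cells that inhibit distal dendrites. Dynorphin is instead known from the mossy fibres of dentate granule cells. Transcription of several of these precursors, Sst above all, is known to be driven through the cAMP response element (CRE), a site bound by CREB.

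Because Sst is the textbook CRE gene, the windows around the CRE letters of the members are shown first. The windows searched ran from 250 bases before to 50 bases after the annotated start of each gene, from RefSeq on GRCm38.p6, and 8 of the 10 genes had one (all but Crh and Penk). The full palindrome TGACGTCA was found on either strand in Sst only, and in 1.79% of all 32851 windows. Its shorter core TGACG, which the palindrome contains, was found on either strand in 6 of the 8, against 20.8% of all windows, and it was absent from the windows of Npy and Pdyn. Capitals mark the match as read on the gene's own strand, so CGTCA is the core on the opposite strand. A match in letters is a description and was not tested as a site. Tac1 had 2 matches, of which the one nearer the start is shown. Distances are from the RefSeq start, while the gene spans given below are those of GENCODE M21. The printed windows of Sst, Crhbp and Tac1 lie inside those spans, so their negative distances hold for the RefSeq start only.
Sst, chr16:23890865-23890912, minus strand, match starting at -48 from the start: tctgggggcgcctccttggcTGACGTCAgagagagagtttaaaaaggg
Cort, chr4:149126757-149126801, minus strand, match at -18: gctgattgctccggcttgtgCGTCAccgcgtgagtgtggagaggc
Crhbp, chr13:95444871-95444915, minus strand, match at -64: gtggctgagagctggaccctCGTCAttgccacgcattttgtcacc
Vip, chr10:5639119-5639163, plus strand, match at -79: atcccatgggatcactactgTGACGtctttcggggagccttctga
Cck, chr9:121495717-121495761, minus strand, match at -47: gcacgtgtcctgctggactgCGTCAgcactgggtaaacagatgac
Tac1, chr6:7554998-7555042, plus strand, match at -43: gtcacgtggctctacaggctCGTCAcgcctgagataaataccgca
The core was present both in genes whose libraries did not overlap between the groups (Sst, Cort and Crhbp) and in genes whose libraries did (Vip, Cck and Tac1). Libraries of Npy and Pdyn, without the core, overlapped, and Crh, whose libraries did not, had no window. A relation between the core and the group difference was not tested.

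CPM are counts scaled to a common library size after TMM normalization. Each library held 18997677 to 23873280 counts. The model check was Thy1, whose promoter drives the transgenes: it had 2776, 3316 and 2379 CPM in 5xFAD, against 851, 887 and 813 CPM in WT, a rise of 1.73 on the log2 scale (adjusted p = 0.0013, edgeR quasi-likelihood test with Benjamini-Hochberg adjustment over the 13937 genes). Across all genes, 106 (0.761%) passed an adjusted p of 0.05, 93 higher (0.667%) and 13 lower (0.0933%) in 5xFAD. Libraries of 5xFAD replicates 1 and 2 stood apart from the other 4. Across genes, their deviation from the WT mean fell with transcript GC content (Spearman -0.526 and -0.662), while 5xFAD replicate 3 had -0.0738 and WT libraries lay between -0.0581 and 0.0636. Results on the members are therefore also given with a term for GC content and length in each library, and for 5xFAD replicate 3 alone against WT. The 10 transcripts span 42.2% GC (Vip) to 58.5% GC (Cort).

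Of the 10 genes, 7 had a log2 fold change below 0 (5xFAD over WT), against 50.9% of all genes. In 4 of the 10 (Sst, Cort, Crh and Crhbp) every 5xFAD library lay below every WT library, against 15.1% of all genes. Cort alone passed the adjusted threshold, so 1 of 10 was called against 0.761% of all genes. Limma-voom also called 1 (0.732% of all genes), DESeq2 called 3 (3.64%), the edgeR exact test 3 (4.1%), the fit with the GC and length term 2 (1.28%), and that of 5xFAD replicate 3 alone 1 (0.853%). Since the genes were picked with this contrast in view, nothing is read from these shares. The median log2 fold change of the 10 was -0.29, and that of all genes was -0.01. It was -0.16 with the GC and length term and -0.43 for 5xFAD replicate 3 alone. A lower value in whole tissue can come from fewer cells of a type or from less RNA per cell. It can also come from the tissue taken in a dissection, or from the GC shift of 5xFAD replicates 1 and 2. These were not tested and cannot be told apart here.

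**Figure D1:**
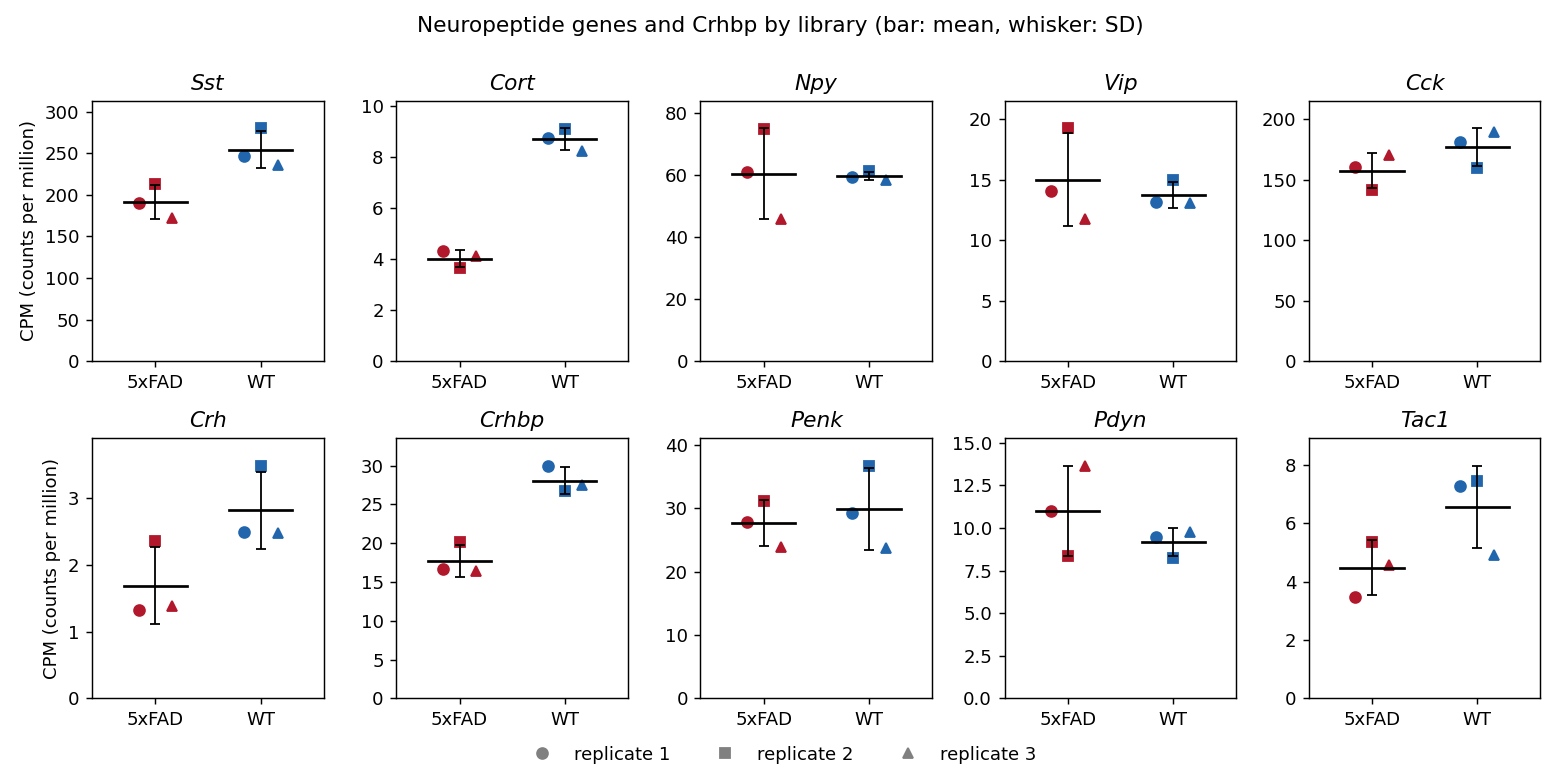
Level of the 10 genes in each library in CPM (read counts scaled to a common library size), 5xFAD (red, left) and WT (blue, right) in each panel; symbols are replicates, the bar is the mean and the whisker the SD over 3 libraries. Sst, Cort, Crh and Crhbp show no overlap of the groups, with Cort at 4.01 ± 0.338 CPM in 5xFAD and 8.67 ± 0.431 CPM in WT, while Npy, Vip, Cck, Penk, Pdyn and Tac1 overlap.

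Cort encodes cortistatin, a peptide close to somatostatin that binds the same receptors. The gene lies on chromosome 4 (mm10, 149125034 to 149126763, minus strand) and is protein coding. It had 91, 65 and 101 reads in the 5xFAD libraries, against 196, 196 and 180 reads in the WT libraries. Every 5xFAD library thus had fewer Cort reads than any WT library, and the spread within each group was small. As CPM they were 4.30, 3.64 and 4.10 in 5xFAD and 8.72, 9.08 and 8.22 in WT. This is a log2 fold change of -1.11 (SE 0.15) for Cort, a 5xFAD level at 0.464 of the WT level. Cort is the most GC-rich of the 10 transcripts, and its fold change was -0.83 with the GC and length term, still past the threshold, and -1.06 for 5xFAD replicate 3 alone, not past it. The call was also lost without 5xFAD replicate 1 (log2 fold change -1.15) and without WT replicates 1, 2 or 3 (-1.11, -1.08 and -1.15), fits in which 12 to 20 genes passed in all. The direction was the same in all 21 fits, over a range of -1.15 to -0.72.

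Sst encodes somatostatin and had by far the more abundant transcript of the pair. It lies on chromosome 16 (23889573 to 23890958, minus strand). Its counts were 4035, 3793 and 4232 in 5xFAD, against 5555, 6036 and 5169 in WT. In CPM the values were 190, 212 and 172 in 5xFAD and 247, 280 and 236 in WT. No 5xFAD library reached the lowest WT library, with 212 CPM against 236 CPM as the nearest pair. Sst had a log2 fold change of -0.41 (SE 0.11), or 0.753 of the WT level, and did not pass the threshold of the edgeR quasi-likelihood test. With the same 6 libraries Sst passed by DESeq2 and by the edgeR exact test. It also passed by limma-voom with quality weights, which called 52.9% of all genes. The size of the Sst difference moved with the treatment of GC content. It was -0.18 with the GC and length term, -0.02 with that term and without 5xFAD replicate 3, and -0.55 for 5xFAD replicate 3 alone. Without 5xFAD replicate 2 (-0.48) or 5xFAD replicate 3 (-0.34), Sst passed the threshold, in fits that called 227 and 3229 genes in all.

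Cort was lower relative to Sst as well. Per 100 Sst reads there were 2.26, 1.71 and 2.39 Cort reads in the 5xFAD libraries, against 3.53, 3.25 and 3.48 in the WT libraries. The ratio did not overlap between groups, and averaged 2.12 ± 0.357 in 5xFAD and 3.42 ± 0.151 in WT (SD, n = 3 each). Both genes are GC-rich (58.5% for Cort and 56.0% for Sst).

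**Figure D2:**
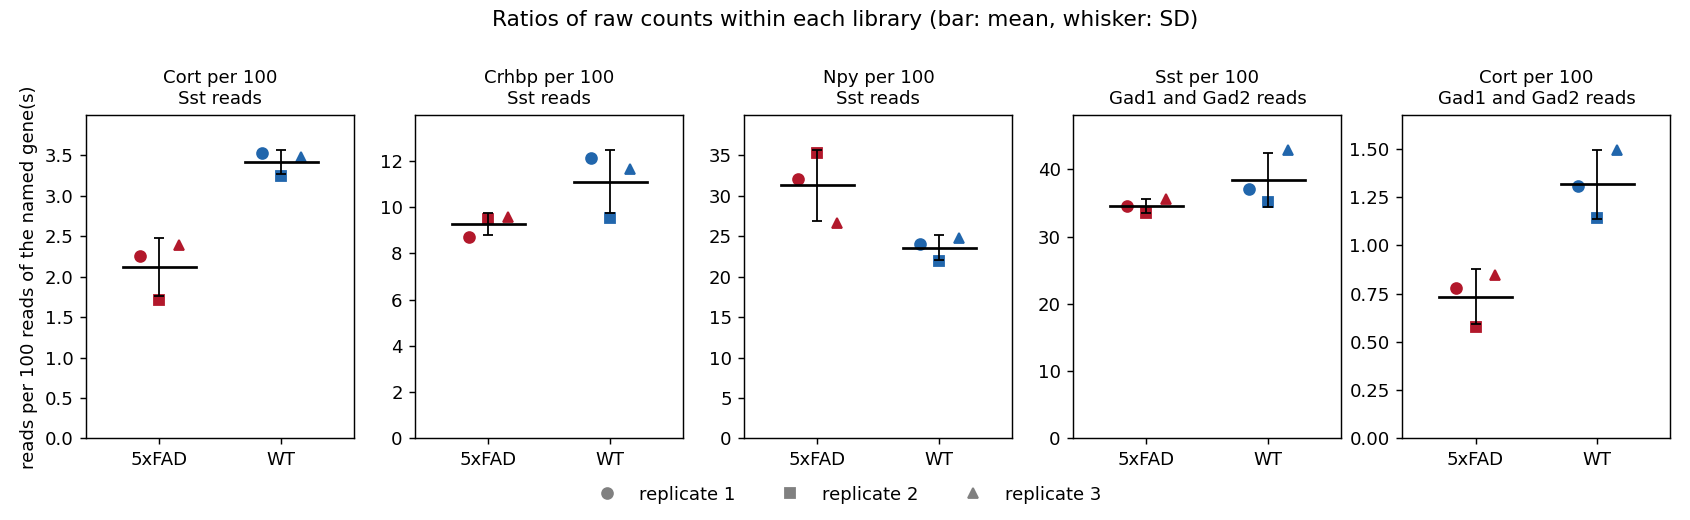
Ratios of raw read counts within each library, 5xFAD (red, left) and WT (blue, right), with the mean as a bar and the SD as a whisker over 3 libraries. Cort per 100 Sst reads and Cort per 100 Gad1 and Gad2 reads are lower in all 5xFAD libraries, Npy per 100 Sst reads is higher in all of them, and the ratios of Crhbp to Sst and of Sst to Gad1 and Gad2 overlap.

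Crhbp encodes a secreted protein that binds corticotropin-releasing hormone and keeps it from its receptors. The gene lies on chromosome 13 (95431371 to 95444924, minus strand). It had 352, 360 and 405 reads in 5xFAD, against 674, 576 and 602 reads in WT. In CPM these were 16.6, 20.2 and 16.5 in 5xFAD and 30.0, 26.7 and 27.5 in WT, so the groups were well apart. Crhbp had a log2 fold change of -0.66 (SE 0.12), or 0.631 of the WT level. Its transcript is near the middle of the GC range (49.0%), and its log2 fold change moved by less than its standard error with GC treatment. It was -0.74 with the GC and length term and -0.75 for 5xFAD replicate 3 alone, and Crhbp passed the threshold in both of these fits. With all 6 libraries and no such term, Crhbp missed the threshold of the edgeR quasi-likelihood test and of limma-voom. It passed that of DESeq2 and of the edgeR exact test, and passed with scaling by library totals. Limma-voom with quality weights, which called 52.9% of all genes, also called it. Crhbp passed without 5xFAD replicate 2 (-0.76) or 5xFAD replicate 3 (-0.61), in fits that called 227 and 3229 genes in all. Over the 21 fits Crhbp ranged from -0.79 to -0.61 and was called in 9.

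Crh, the gene of corticotropin-releasing hormone itself, was the rarest transcript of the 10 per length. It lies on chromosome 3 (19693401 to 19695396, minus strand). It had 28, 42 and 34 reads in 5xFAD, against 56, 75 and 54 reads in WT. The CPM values were 1.32, 2.35 and 1.38 in 5xFAD and 2.49, 3.48 and 2.47 in WT, and the highest 5xFAD library came close to the lowest WT library. For Crh the log2 fold change was -0.75 (SE 0.30), with the same value under the GC and length term and -1.004 for 5xFAD replicate 3 alone. At these counts the standard error is wide, and it did not pass the threshold in any of these fits. Per 100 Crhbp reads there were 7.95, 11.7 and 8.40 Crh reads in 5xFAD and 8.31, 13.02 and 8.97 in WT, so hormone and binding protein stood in overlapping ratios.

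Npy encodes neuropeptide Y, made in many somatostatin cells and in neurogliaform and ivy cells. It lies on chromosome 6 (49822710 to 49829507, plus strand). Its CPM was 61.0, 74.8 and 45.7 in 5xFAD, against 59.5, 61.3 and 58.6 in WT. The WT libraries lay close together, while the 5xFAD libraries lay above, within and below them. The log2 fold change of Npy was 0.02 (SE 0.16), and it was 0.18 with the GC and length term and -0.37 for 5xFAD replicate 3 alone. Per 100 Sst reads there were 32.0, 35.2 and 26.6 Npy reads in 5xFAD, against 24.1, 21.9 and 24.8 in WT, so this ratio was higher in every 5xFAD library.

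Vip encodes vasoactive intestinal peptide, which marks interneurons that inhibit other interneurons. It lies on chromosome 10 (5639218 to 5647617, plus strand) and has the least GC of the 10. Its CPM was 14.1, 19.3 and 11.7 in 5xFAD, against 13.2, 15.0 and 13.1 in WT. As for Npy, 5xFAD replicate 2 was the highest of all libraries and 5xFAD replicate 3 the lowest. Vip had a log2 fold change of 0.12 (SE 0.19), -0.15 with the GC and length term and -0.21 for 5xFAD replicate 3 alone, so its sign depended on the fit.

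Cck encodes cholecystokinin, found in a class of basket cells and, as mRNA, in pyramidal cells too. It lies on chromosome 9 (121489824 to 121495694, minus strand). Its CPM was 161, 142 and 170.0 in 5xFAD, against 181, 160 and 190 in WT. The groups overlapped by 5xFAD replicates 1 and 3. The log2 fold change of Cck was -0.17 (SE 0.10), 0.06 with the GC and length term and -0.04 for 5xFAD replicate 3 alone.

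The opioid precursors overlapped between the groups. Penk, which encodes proenkephalin, lies on chromosome 4 (4133531 to 4138819, minus strand). It had 27.9, 31.2 and 23.9 CPM in 5xFAD, against 29.3, 36.7 and 23.8 CPM in WT. Its log2 fold change was -0.11 (SE 0.17) and turned to 0.06 without WT replicate 2, its highest library. It was -0.05 with the GC and length term and -0.31 for 5xFAD replicate 3 alone. Penk shares 14.3% of its exon bases with A830012C17Rik on the opposite strand, and the sources used here do not give the strand setting of the counting, so its reads may include that transcript.

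Pdyn, which encodes prodynorphin, lies on chromosome 2 (129686565 to 129699844, minus strand). It had 10.997, 8.34 and 13.7 CPM in 5xFAD, against 9.47, 8.25 and 9.78 CPM in WT. The highest values were in 5xFAD replicates 3 and 1, while 5xFAD replicate 2 lay within the WT range. Its log2 fold change was 0.27 (SE 0.19), 0.30 with the GC and length term and 0.59 for 5xFAD replicate 3 alone, and above 0 in all 21 fits. Without 5xFAD replicate 3 it was 0.08, and without 5xFAD replicate 2 it was 0.43. Markers of dentate granule cells were read beside it. Of 18 granule cell genes, 16 had a log2 fold change above 0 (median 0.42, all genes -0.01), and edgeR called 0 at the adjusted threshold, while 8 had an unadjusted p below 0.05 (18.9% of all genes did). DESeq2 called 5 (3.64% of all genes), and so did the edgeR exact test (4.1%). Of 16 genes of CA pyramidal cells, 12 had a log2 fold change below 0 (median -0.22), against 50.9% of all genes. Of these 16, edgeR called 2 (0.761% of all genes), Pou3f1 (-0.54, adjusted p = 0.042) and Mpped1 (-0.47, adjusted p = 0.044), both lower in 5xFAD. The summed CPM of the granule cell genes was 1450, 1526 and 1434 in 5xFAD, against 1105, 890 and 1307 in WT, and the part of this in the Pdyn value was not tested. Per 100 reads of Prox1, a transcription factor gene of granule cells, Pdyn had 11.6, 7.75 and 14.1 reads in 5xFAD, against 13.7, 18.9 and 12.7 in WT, which overlap.

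Tac1 encodes the precursor of substance P and neurokinin A. It lies on chromosome 6 (7554879 to 7565834, plus strand). It had 74, 96 and 113 reads in 5xFAD, against 164, 161 and 108 reads in WT. In CPM these were 3.49, 5.37 and 4.59 in 5xFAD and 7.29, 7.46 and 4.93 in WT. WT replicate 3 lay inside the 5xFAD range, and the other WT libraries lay above all 5xFAD libraries. Tac1 had a log2 fold change of -0.55 (SE 0.23), -0.71 with the GC and length term and -0.50 for 5xFAD replicate 3 alone. It was below 0 in all 21 fits, and past the threshold in 1 of them, limma-voom with library quality weights, which called 52.9% of all genes.

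**Figure D3:**
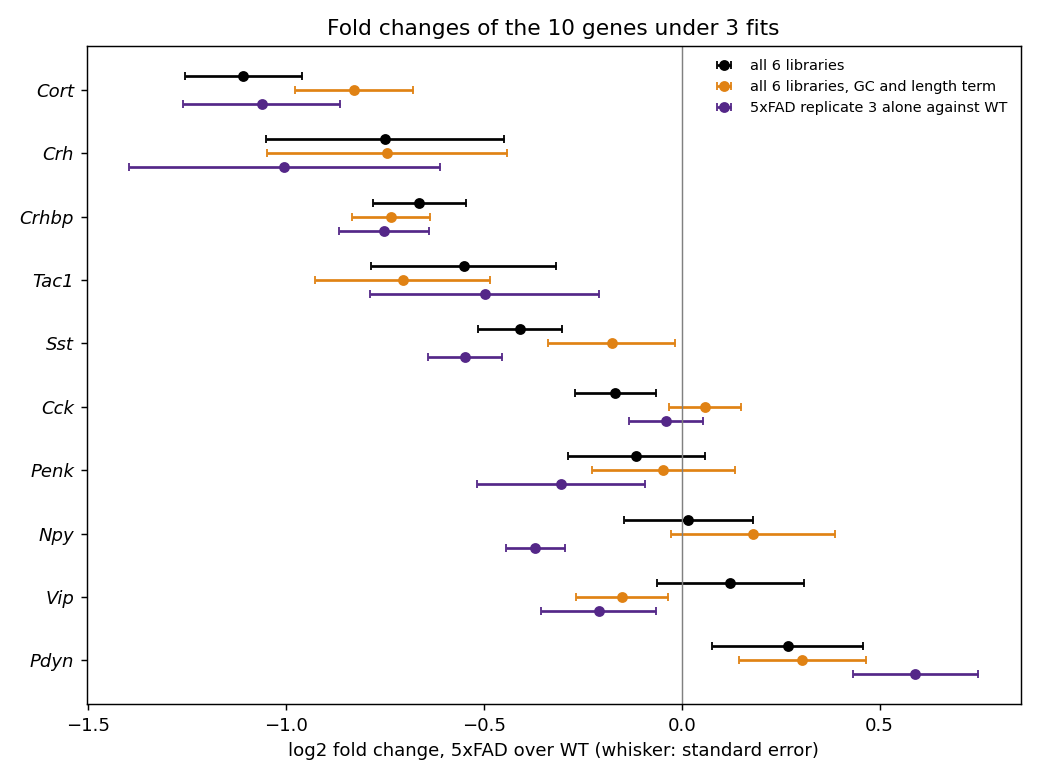
Log2 fold change (5xFAD over WT, horizontal axis) of each gene with its standard error under 3 fits: all 6 libraries, the same with a GC and length term, and 5xFAD replicate 3 alone against WT. Cort, Crh, Crhbp and Tac1 lie below -0.45 in all 3, Sst lies between -0.55 and -0.18, and Npy, Vip and Cck change sign between fits.

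Levels can be compared between the genes only per transcript length. In CPM per kilobase, the means in 5xFAD were 266 for Sst, 197 for Cck and 107 for Npy, against 353, 221 and 106 in WT. No libraries of neighbouring genes in this order overlapped in either group. Penk (19.1 in 5xFAD and 20.6 in WT), Crhbp (9.97 in 5xFAD and 15.8 in WT), Cort (5.93 in 5xFAD and 12.8 in WT) and Vip (9.82 in 5xFAD and 8.99 in WT) followed in the WT order, in which Penk and Crhbp overlapped. In 5xFAD, Cort stood below Vip, with no overlap between 5.37 to 6.34 for Cort and 7.68 to 12.6 for Vip. The least abundant were Tac1 (3.65 in 5xFAD and 5.34 in WT), Pdyn (4.61 in 5xFAD and 3.84 in WT) and Crh (1.28 in 5xFAD and 2.13 in WT), and Tac1 and Pdyn overlapped in both groups. Summed over the 10 genes, the level was 491, 519 and 464 CPM in 5xFAD, against 588, 607 and 574 CPM in WT, and most of this sum is Sst and Cck.

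By the rule for likeness, the tested genes of at least 5 CPM whose log2 CPM over the 6 libraries had the highest Pearson correlation with Cort were 8430419L09Rik (0.997), Hif3a (0.996), a member of the hypoxia-inducible factor family, and Prelp (0.994), a matrix proteoglycan. For Sst they were Cit (0.997), which encodes citron kinase, Sulf2 (0.993) and 1700001L19Rik (0.991). These correlations include the difference between the groups and the GC content of the libraries, and 109 genes correlated above 0.95 with Cort and 63 with Sst among 10842 compared.

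GABAergic interneuron genes were read beside the peptides. Per 100 reads of Gad1 and Gad2, the enzymes that make GABA, there were 34.6, 33.5 and 35.5 Sst reads in 5xFAD, against 37.1, 35.1 and 42.9 in WT, and these ranges overlap by 5xFAD replicate 3. For Cort there were 0.779, 0.575 and 0.848 reads per 100 Gad1 and Gad2 reads in 5xFAD, against 1.31, 1.14 and 1.49 in WT, without overlap. For Crhbp the ratios were 3.02, 3.18 and 3.40 in 5xFAD, against 4.50, 3.35 and 5.00 in WT, with overlap. For Vip they were 2.55, 3.04 and 2.43 in 5xFAD, against 1.98, 1.89 and 2.37 in WT, higher in every 5xFAD library. The nearest pair, 5xFAD replicate 3 and WT replicate 3, was close. All these ratios use raw counts without the GC term, and Vip has the least GC of the 10 (42.2%). Gad2 itself was highest in WT replicate 2 (364 CPM). Of 31 interneuron genes tested, 21 had a log2 fold change below 0 (median -0.19), against 50.9% of all genes. Libraries of the groups did not overlap for 4 lower genes (15.1% of all genes), Slc32a1 among them. They also did not overlap for 5 higher genes (13.2%), Sox6, Ndnf, Adarb2 and Maf among them. Of the general interneuron genes, Gad1 had a log2 fold change of -0.20 (SE 0.10) and Gad2 of -0.38 (SE 0.25), both with overlapping libraries. The GABA vesicle transporter Slc32a1 was 44.1, 33.1 and 50.5 CPM in 5xFAD, against 72.4, 93.1 and 54.8 CPM in WT. Its log2 fold change was -0.78 (SE 0.22, adjusted p = 0.187, edgeR), and -0.43 with the GC and length term. The Slc32a1 transcript is GC-rich (61.9%).

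None of the tested receptors of these peptides passed the edgeR threshold. Of 22 receptor genes listed, 15 were tested, and 12 of them had a log2 fold change below 0, against 50.9% of all genes. Their median was -0.21, -0.06 with the GC and length term and -0.11 for 5xFAD replicate 3 alone. An unadjusted p under 0.05 was reached by 6 of the 15, against 18.9% of all genes. DESeq2 and limma-voom called 0 of the receptors and the edgeR exact test 1. Sstr5, Npy4r, Npy6r, Cckar, Oprm1 and Tacr2 were too low to test, and Crhr1 was not analysed here. For the somatostatin and cortistatin receptors the log2 fold changes were -0.21 (SE 0.09) for Sstr4, -0.30 (SE 0.13) for Sstr3, -0.20 (SE 0.25) for Sstr1 and -0.05 (SE 0.18) for Sstr2. Sstr4 had 33.4, 33.4 and 35.1 CPM in 5xFAD, against 37.7, 38.7 and 41.9 CPM in WT (adjusted p = 0.254, edgeR), and with the GC and length term its sign turned (0.12). Sstr1 and Sstr2 also turned sign with that term.

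The neuropeptide Y receptors leaned the other way. Npy2r, largely a presynaptic receptor, had 87.6, 98.8 and 80.9 CPM in 5xFAD, against 73.6, 70.7 and 63.0 CPM in WT. Npy1r, largely a postsynaptic receptor, had 48.3, 59.4 and 46.5 CPM in 5xFAD, against 40.7, 32.5 and 39.8 CPM in WT. Both were higher in every 5xFAD library, at log2 fold changes of 0.37 for Npy2r (SE 0.10, adjusted p = 0.196) and 0.45 for Npy1r (SE 0.13, adjusted p = 0.200), and neither passed the edgeR threshold. With the GC and length term these were 0.15 for Npy2r and 0.24 for Npy1r. Npy5r was at 0.30 (SE 0.17), and its libraries overlapped.

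Vipr2, a receptor of Vip and of the related peptide PACAP, had the largest receptor fold change and a low level. It had 0.566, 0.952 and 0.528 CPM in 5xFAD, against 1.87, 1.34 and 1.64 CPM in WT. Its log2 fold change was -1.26 (SE 0.33), at an edgeR adjusted p of 0.166. It was -1.28 with the GC and length term and -1.59 for 5xFAD replicate 3 alone. Vipr1, the other Vip receptor, was at -0.29 (SE 0.22) with overlapping groups. Crhr2, a receptor for urocortins and, less tightly, for Crh, was at -0.82 (SE 0.31, adjusted p = 0.242, edgeR). The opioid receptors Oprd1 and Oprk1 were at -0.30 (SE 0.13) and -0.81 (SE 0.47), Cckbr, the brain cholecystokinin receptor, at -0.16 (SE 0.16), and the tachykinin receptors Tacr1 and Tacr3 at -0.27 (SE 0.34) and -0.13 (SE 0.15).

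**Figure D4:**
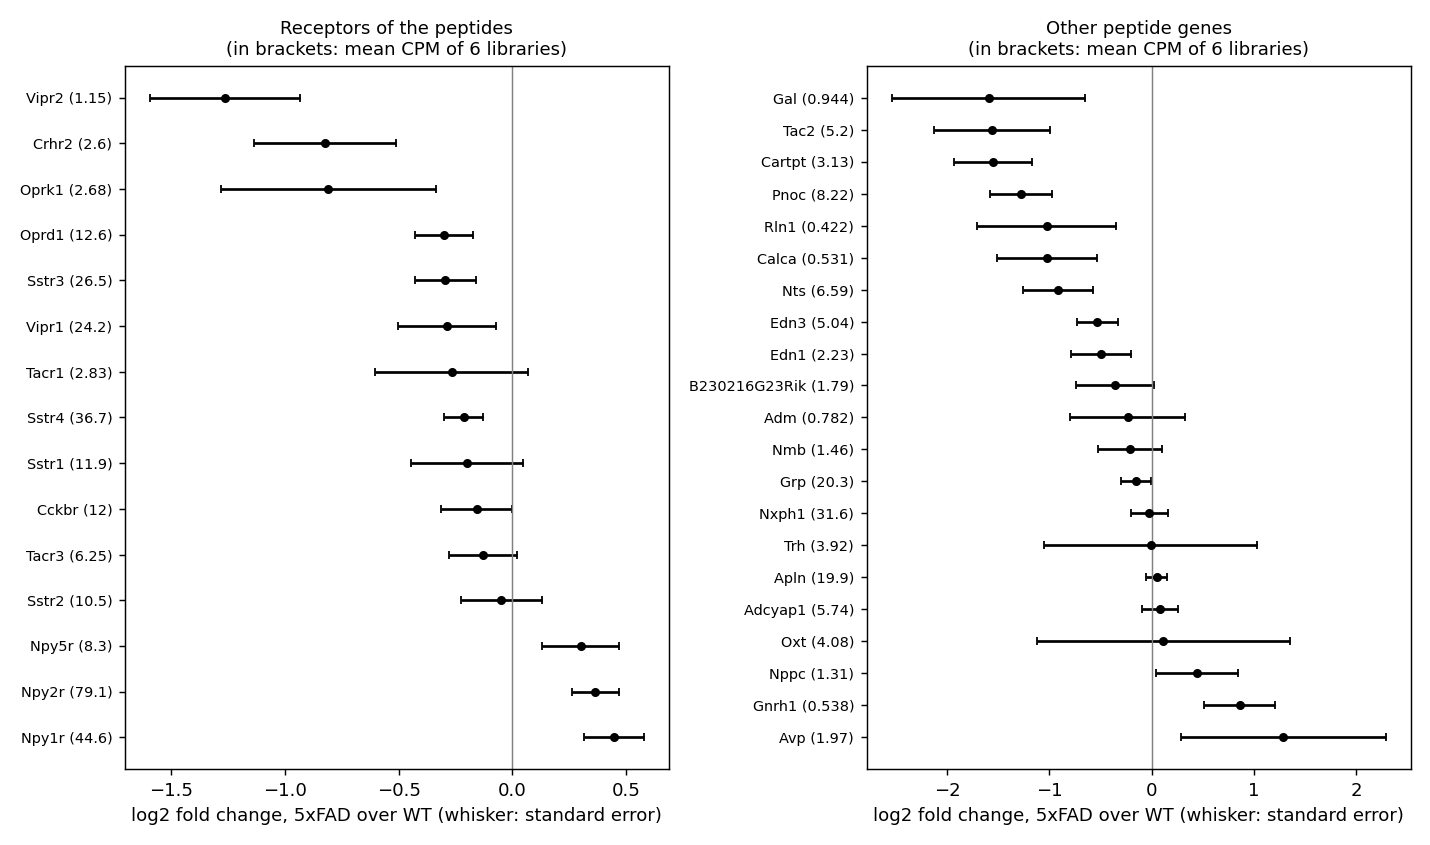
Log2 fold change (5xFAD over WT, horizontal axis) with its standard error for the 15 tested receptors of the peptides (left) and 21 other tested neuropeptide and peptide hormone genes (right), with the mean CPM of all 6 libraries in brackets. The Npy receptors lie above 0 and the other 12 receptors below 0, and no gene in either panel passed the adjusted threshold.

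Of 21 other neuropeptide and peptide hormone genes tested, 15 had a log2 fold change below 0 (median -0.24), against 50.9% of all genes. An unadjusted p below 0.05 was reached by 6, against 18.9% of all genes, and edgeR called 0. DESeq2 and the edgeR exact test each called 2, and limma-voom called 0. Pnoc, the precursor of the opioid-related peptide nociceptin, had 5.43, 3.08 and 5.81 CPM in 5xFAD, against 10.2, 16.2 and 8.64 CPM in WT (log2 fold change -1.28, SE 0.31, adjusted p = 0.141, edgeR). Cartpt, of a peptide that in mouse marks dentate mossy cells and other neurons, had 1.32, 1.18 and 2.23 CPM in 5xFAD, against 4.85, 6.49 and 2.74 CPM in WT (log2 fold change -1.55, adjusted p = 0.149, edgeR). Their libraries did not overlap, as for Cort. Tac2, which encodes neurokinin B, another tachykinin, was at -1.56 (adjusted p = 0.236, edgeR) with 2.03, 3.25 and 2.64 CPM in 5xFAD and 7.56, 13.5 and 2.24 CPM in WT, so that WT replicate 3 lay inside the 5xFAD range, as for Tac1. Nts, the neurotensin gene, was at -0.91 (adjusted p = 0.239, edgeR), with overlapping libraries. WT replicate 3 was the lowest WT library for Pnoc, Cartpt, Tac2 and Nts, and among the members for Sst, Cort, Npy, Vip, Crh, Penk and Tac1.

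Several of these peptides are abundant in tissue next to the hippocampus, so markers of such tissue were summed. Of 13 striatum and amygdala genes, the sum was 317, 351 and 293 CPM in 5xFAD, against 339, 357 and 328 CPM in WT, with overlap. Pde10a and Foxp1 make up most of that sum. Six3, a transcription factor gene of ventral forebrain neurons, had 0.897, 0.952 and 1.14 CPM in 5xFAD, against 5.16, 11.7 and 0.228 CPM in WT (adjusted p = 0.249, edgeR). Isl1, another such gene, had 0.330, 0.0560 and 0.447 CPM in 5xFAD, against 1.16, 4.45 and 0.183 CPM in WT. Of 12 thalamus and habenula genes it was 140, 155 and 132 CPM in 5xFAD, against 164, 178 and 149 CPM in WT, also with overlap. Of 12 hypothalamus genes it was 13.5, 1.62 and 24.9 CPM in 5xFAD, against 14.2, 31.0 and 1.69 CPM in WT. Among them, Avp had 2.97, 0.112 and 5.24 CPM in 5xFAD, against 0.667, 2.50 and 0.320 CPM in WT. Oxt had 3.92, 0.0560 and 8.61 CPM in 5xFAD, against 4.09, 7.83 and 0 CPM in WT. Avp and Oxt were highest in 5xFAD replicate 3. Hcrt and Pmch, genes of hypothalamic neurons, were highest in WT replicate 2 (1.67 CPM for Hcrt and 2.36 CPM for Pmch), as Six3 and Isl1 were. This library also had the highest Sst, Cort, Npy, Vip, Crh, Penk and Tac1 of the WT libraries. Without it the log2 fold changes were -0.34 for Sst, -1.08 for Cort, 0.03 for Npy, 0.19 for Vip, -0.57 for Crh, -0.70 for Crhbp, 0.06 for Penk and -0.45 for Tac1. WT replicate 1, which stayed in that fit, had 0.578 CPM of Hcrt and 1.42 CPM of Pmch. That fit therefore does not leave out every WT library with such reads. In WT replicate 3 Hcrt and Pmch were at 0. In 5xFAD, Hcrt was at 0 in every library and Pmch was at most 0.112 CPM. Of 10 choroid plexus genes the sum was 327, 486 and 211 CPM in 5xFAD, against 132, 145 and 137 CPM in WT, without overlap. Most of it is Ttr, the transthyretin gene, with 267, 413 and 160 CPM in 5xFAD, against 79.7, 81.1 and 91.6 CPM in WT (adjusted p = 0.059, edgeR). Without Ttr the other 9 genes summed to 60.04, 73.8 and 51.2 CPM in 5xFAD, against 52.1, 63.8 and 45.8 CPM in WT, with overlap. Of the 10 choroid plexus genes, 8 had a log2 fold change above 0, while 50.9% of all genes were below 0. Libraries of 2 were higher without overlap (13.2% of all genes), and edgeR called 0 (0.761%). Their median log2 fold change was 0.79, 0.80 with the GC and length term and 0.06 for 5xFAD replicate 3 alone. The part of such tissue in the values of the members was not tested.

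Of 22 tested genes that make, store or degrade peptides, among them prohormone convertases, carboxypeptidase E and granins, Vgf alone passed the threshold (median log2 fold change -0.14). Vgf, itself a granin-like peptide precursor, fell by 0.89 on the log2 scale (adjusted p = 0.030, edgeR), with 128, 105 and 146 CPM in 5xFAD, against 228, 254 and 220 CPM in WT. Vgf also passed by DESeq2, the edgeR exact test and limma-voom. Its transcript has 64.1% GC. With the GC and length term its log2 fold change was -0.46 (adjusted p = 0.080, edgeR), and for 5xFAD replicate 3 alone it was -0.66. Without 5xFAD replicate 1, or without WT replicate 1, 2 or 3, no gene of this list passed, in fits that called 12 to 20 genes in all. Without 5xFAD replicate 3 there were 8, in a fit that called 3229 genes in all. The convertases that cut the members' precursors were at 0.12 (Pcsk1) and 0.05 (Pcsk2), and carboxypeptidase E (Cpe) at -0.03.

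Activity-regulated genes, several of which share the CRE with Sst, were split in direction. Of 24 tested, 12 were below 0 and 12 above (median 0.04), and edgeR called 0, while 10 had an unadjusted p below 0.05, against 18.9% of all genes. DESeq2 and the edgeR exact test each called 1, and limma-voom called 0. Ptgs2, Homer1 and Inhba were at 0.36, 0.44 and 0.81 and Nr4a1 at -0.38 (adjusted p 0.138 to 0.205, edgeR), and all were smaller in size with the GC and length term (0.12, 0.14, 0.58 and -0.13).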

How the data were processed

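Total RNA of mouse hippocampus (3 5xFAD and 3 WT samples, age 3 months) was depleted of ribosomal RNA and sequenced by the authors as paired-end reads. The deposited values are raw counts of reads per gene, made by the authors with cutadapt 1.9.3, HISAT2 2.0.4 on mm10 and HTSeq 0.9.1 per the submitters' processing notes, which also list edgeR 3.16.5. The sources used here do not give the annotation release or the strand setting. Gene names came from the same table, and 6 columns that the authors normalized were left out. Groups came from the sample titles.

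Counts were fitted in R 4.3.3 with edgeR 4.0.16 (filterByExpr with a minimum count of 10, TMM scaling, glmQLFit and glmQLFTest on genotype, 2-sided, all 6 libraries, no block). P-values were adjusted by Benjamini-Hochberg over all 13937 genes kept, and 0.05 was the threshold. Standard errors were the log2 fold change over the square root of F. CPM used TMM library sizes. With 3 against 3 samples an exact test of a single value cannot go below 0.1, so none was used. Transcript length and GC content came from GENCODE M21 on mm10 and covered 98.3% of the genes. The GC and length term was an offset per library from natural splines with 4 degrees of freedom each. Alternatives were other scalings and filters, limma-voom (limma 3.58.1) with and without library quality weights, DESeq2 1.42.0, the exact test of edgeR, a replicate block, the GC and length term, and leaving out libraries. Of these fits, only the edgeR quasi-likelihood fit of all 6 libraries, with no block and no GC and length term, was tested on simulated counts.

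The genes, the lists and the tests were chosen with earlier results of these data known. Named genes were the 10 genes, every receptor tested, from the lists of other neuropeptides, processing, interneuron and activity-regulated genes those past the threshold or else the 4 with the smallest p, Thy1, and the 3 genes most like Sst and Cort. A gene that this rule takes from the interneuron list is not reported here. Slc32a1, Gad1, Gad2, Sox6, Ndnf, Adarb2, Maf, Prox1, Pcsk1, Pcsk2, Cpe, Hcrt, Pmch, Avp, Oxt, Six3, Isl1, Ttr, Pou3f1, Mpped1, Pde10a and Foxp1 were named after their values were seen. No 2 libraries agreed within sampling noise (chi-square per gene at least 4.04). Reads are not independent molecules, and the total counts, 18997677 to 23873280, limit the precision of low genes such as Crh.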

Additional observations from a re-analysis of the deposited data

How the results depend on the processing

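With all 6 libraries, edgeR called 106 genes, of which 1 was among the 10 peptide genes (Cort), 1 was a processing gene (Vgf) and 1 an interneuron gene. DESeq2 size factors, upper-quartile scaling, no low-count filter, the study's detection rule and limma-voom left these 3 counts as they were. Library totals gave 69 genes in all, 2 of the 10 and 0 processing genes. The DESeq2 test called 507 in all, 3 of the 10, 2 other neuropeptides, 3 interneuron genes and 1 activity-regulated gene. The edgeR exact test called 572 in all, 3 of the 10, 1 receptor, 2 other neuropeptides, 3 interneuron genes and 1 activity-regulated gene. Limma-voom with library quality weights called 7378 in all, 7 of the 10, 12 receptors, 9 other neuropeptides, 15 processing, 22 interneuron and 16 activity-regulated genes. The GC and length term called 179 in all, 2 of the 10 and 0 processing genes. That term without 5xFAD replicate 3 called 1144 in all, 2 of the 10, 2 other neuropeptides, 4 processing, 3 interneuron and 3 activity-regulated genes. The fit of 5xFAD replicate 3 alone, whose spread is taken from WT, called 1 of the 10, which was Crhbp.

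Leaving out each library in turn gave 12 to 3229 genes in all, 0 to 3 of the 10, 0 to 2 receptors, 0 to 2 other neuropeptides, 0 to 8 processing genes, 0 to 7 interneuron genes and 0 to 7 activity-regulated genes, with the highest counts without 5xFAD replicate 3. As a replicate block, the numbers of the titles called 20 genes in all, 0 of the 10, 0 processing and 0 interneuron genes, and with the GC and length term the block called 99 in all, 0 of the 10 and 0 interneuron genes. Same-numbered libraries did not deviate together (correlations of -0.0077, -0.0283 and -0.0362). No library correlated best with its own number, so the numbers were not taken as pairs.

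Among the 10 genes, Npy and Vip were below 0 in 5 of 21 fits each, Cck was below 0 in 18, Penk in 19, and the other 6 kept their sign in all. Signs turned in these log2 fold changes of other genes. With the GC and length term, Sstr1 was 0.0266, Sstr2 0.0275, Sstr4 0.12 and Cckbr 0.0634. With that term and the replicate block, Sstr1 was 0.0114, Sstr2 0.0413, Sstr4 0.10 and Cckbr 0.0303. With the term and without 5xFAD replicate 3, Sstr2 was 0.0367, Sstr4 0.24, Cckbr 0.24 and Nr4a1 0.0258. For 5xFAD replicate 3 alone, Sstr1 was 0.20, Sstr2 0.0438, Vipr1 0.0665 and Tacr3 0.0008. With quality weights Sstr2 was 0.21. Leaving out single libraries gave -0.45 to 0.0372 for Sstr1, -0.20 to 0.0837 for Sstr2 and -0.57 to 0.005 for Tacr1. The cause was not tested. Over 42 genes and 20 alternatives, 745 values stayed within the spread between libraries (the 10 genes) or kept their direction and side of the threshold (the others), 12 moved beyond that spread, 21 turned sign, 43 passed the threshold only in the alternative and 19 only in the fit with all 6 libraries. Depth limits the rarest genes most, with 28 to 75 reads per library for Crh.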
